A study of Mus musculus with 8 samples.

Results

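The islet hormone genes are the genes of the pancreatic islet that encode a secreted peptide hormone: Ins1, Ins2, Iapp, Gcg, Sst, Ppy, Pyy and Ghrl. They were chosen by symbol and not by a measured value, although earlier results of these data were known. All 8 were found among the 32531 gene symbols of the count table. Whole-islet RNA of 4 controls and 4 β-tetO-NICD mice was sequenced. Controls were RIP-Cre+, Rosa26-rtTA+, tetO_NICD-, and β-tetO-NICD mice were RIP-Cre+, Rosa26-rtTA+, tetO_NICD+. Every mouse, controls included, therefore carried Cre and the rtTA allele, every mouse had a mixed background of C57BL/6J, 129X1/SvJ and BALB/c, and every mouse drank doxycycline (Dox) for 8 weeks. In β-tetO-NICD mice, Dox induces the intracellular domain of Notch1 (NICD), the active form of the receptor. Cre is driven by an insulin promoter, so induction is directed to β cells, and the rtTA allele also carries EGFP. The study began Dox at weaning in some mice and later in others, and which of these holds for the sequenced mice, and their age, is not given in the sources used here. The comparison asks how the transcripts of each islet hormone stood, and in which proportion to each other, after Notch had been active in β cells.

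Each islet endocrine cell type is defined by its main hormone. β cells secrete insulin, which lowers blood glucose, together with islet amyloid polypeptide. α cells secrete glucagon, which raises it, δ cells secrete somatostatin, which restrains both, PP (or γ) cells secrete pancreatic polypeptide, and the rare ε cells make ghrelin. Rodents carry a pair of insulin genes, Ins1 and Ins2.

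In GENCODE M21 (GRCm38 build), Ins1 lies at chr19:52264297-52265476 (+), Ins2 at chr7:142678656-142743381 (−), a span that also holds longer transcript models, Iapp at chr6:142298423-142303961 (+), Gcg at chr2:62474530-62483650 (−), Sst at chr16:23889573-23890958 (−) and Ghrl at chr6:113716119-113719880 (−). Ppy at chr11:102099930-102101319 and Pyy at chr11:102106676-102107832 are neighbours on the same (−) strand, and both encode peptides of the neuropeptide Y family. Counts for these genes cover whole annotated transcripts, exons and UTRs together.

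Promoter sequence is shown for Ins1 and Gcg, the hormones of β and α cells on either side of the comparison, because RBPJ, the DNA-binding partner of NICD, and the bHLH factors of endocrine cells have known short core motifs. The sequences are the 250 bases upstream of the RefSeq start site on GRCm38.p6, 5′ to 3′ on the strand of the gene. Capitals mark every match, on either strand, to TGGGAA (the RBPJ core), CAGATG (an E-box) and TGACGTCA (the cAMP response element).
Ins1, chr19:52264047-52264296 (+): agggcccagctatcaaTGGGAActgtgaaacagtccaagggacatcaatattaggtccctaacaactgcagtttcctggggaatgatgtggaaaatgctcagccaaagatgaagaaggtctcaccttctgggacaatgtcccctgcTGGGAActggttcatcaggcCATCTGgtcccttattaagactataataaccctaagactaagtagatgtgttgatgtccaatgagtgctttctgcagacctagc
Gcg, chr2:62483654-62483903 (−): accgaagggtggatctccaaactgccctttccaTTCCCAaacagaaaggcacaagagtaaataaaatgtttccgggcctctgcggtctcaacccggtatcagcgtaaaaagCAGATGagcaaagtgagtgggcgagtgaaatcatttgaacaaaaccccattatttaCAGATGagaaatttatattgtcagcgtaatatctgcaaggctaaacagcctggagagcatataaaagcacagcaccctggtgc
Ins1 held 2 matches to TGGGAA, with first bases at −234 and −104 from the start site, and 1 to CAGATG at −84. Gcg held 1 match to TGGGAA at −217 and 2 to CAGATG at −139 and −83. Sst held neither of these but carried the cAMP response element at −48, shown here with 11 flanking bases on each side, a position that lies inside both the GENCODE M21 gene model and the full RefSeq gene span.
Sst, chr16:23890874-23890903 (−): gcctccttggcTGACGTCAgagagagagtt
Among 32851 RefSeq windows of the same length, 21.6% held TGGGAA, 14.4% held CAGATG and 1.55% held TGACGTCA. Both TGGGAA and CAGATG are thus common, and a match is a description of letters, not of a bound site. RefSeq windows were matched for 7 of the 8 hormone genes, all but Ins2. Ghrl, with 4 start sites, held TGGGAA once in each of 2 windows, at −149 and −85. Iapp held 1 match to CAGATG at −111, and Ppy and Pyy held none of the 3 motifs.

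Library totals lay between 21701223 and 26413146 counts, and 15082 genes were tested. The label check held in every library, with 11388 to 36628 counts of Notch1, which may include transcripts of the transgene, in β-tetO-NICD libraries against 1051 to 1562 in controls. Several properties of the libraries moved with the groups or cut across them. Expression relative to the mean of the 8 libraries increased with transcript length in controls 1, 2 and 4 and β-tetO-NICD library 1 (Spearman's rho across genes from 0.418 to 0.497), and decreased with length in control 3 and β-tetO-NICD libraries 2, 4 and 5 (rho from −0.521 to −0.174). Acinar markers took from 5.16% of the counts in β-tetO-NICD library 4 to 15.8% in β-tetO-NICD library 1. The Y-linked gene Eif2s3y had counts above 1 in controls 2 and 4 and β-tetO-NICD library 5 only, although the methods name males for gene expression. Ddx3y, also Y-linked, had 1414, 1659 and 344 counts in the same libraries and 1 count in every other. The groups thus differ in how many libraries held counts of these genes. The β-tetO-NICD columns are numbered 1, 2, 4 and 5 while the mice are labelled 1 to 4, so the columns numbered 4 and 5 were used as members of the group with no mouse assigned.

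The 8 hormone genes together took 20.9% ± 2.47 (SD, n = 4) of all counts in controls and 18.8% ± 3.96 (SD, n = 4) in the β-tetO-NICD group, so 8 genes gave a large part of each library. Within that pool the make-up differed. Insulin (Ins1 plus Ins2) took 79.4%, 77.3%, 71.3% and 78.0% of the hormone counts in controls 1 to 4, and 45.7%, 53.4%, 52.2% and 61.4% in the β-tetO-NICD libraries 1, 2, 4 and 5. Glucagon took 5.80%, 9.83%, 16.5% and 10.1% in controls and 42.7%, 31.2%, 32.9% and 25.6% in the β-tetO-NICD group. For both hormones the ranges of the groups were separate, with control 3 nearest to the β-tetO-NICD group and β-tetO-NICD library 5 nearest to controls. These shares are descriptions of each library, and the shares of a pool are not independent of each other.

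**Figure D1:**
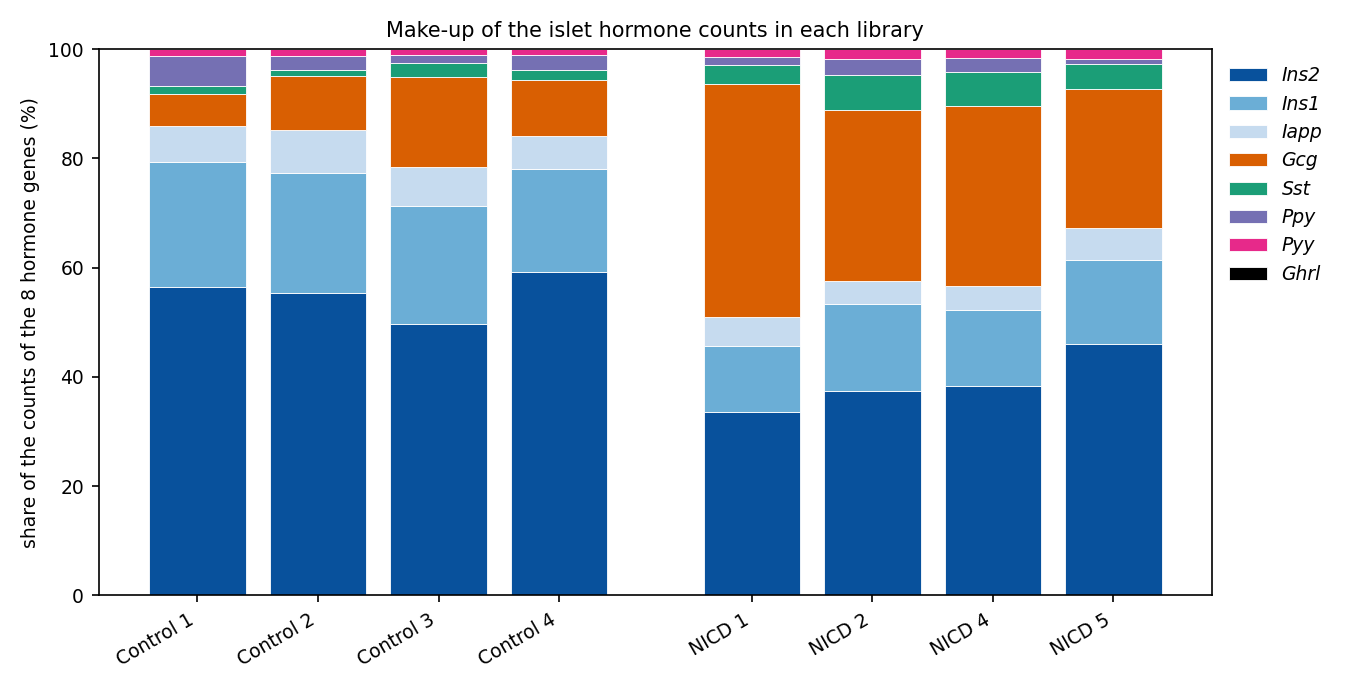
Each bar is 1 library, and its segments give the share (%) of the summed counts of the 8 hormone genes taken by each gene. Insulin (dark and middle blue) fills 71.3% to 79.4% of the control bars and 45.7% to 61.4% of the NICD (β-tetO-NICD) bars, and Gcg (orange) widens from at most 16.5% to at least 25.6%.

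Ins1 and Ins2 encode near-identical preproinsulins, and pseudoalignment could have divided shared reads between them. After normalization by edgeR's TMM method, Ins2 was at 110066, 110908, 123504 and 108014 CPM (counts scaled to a common library total) in controls 1 to 4 and at 46660, 80415, 62119 and 117321 CPM in the β-tetO-NICD libraries 1, 2, 4 and 5. Controls were close together, whereas the β-tetO-NICD libraries spread widely, and library 5 lay within the control range. Ins1 was at 44751, 44139, 53826 and 34179 CPM in controls and at 16835, 34304, 22494 and 39085 CPM in the β-tetO-NICD group, which also overlapped. As a share of all counts, without TMM, both insulin genes were separate by a narrow margin, with at least 10.6% in controls against at most 10.4% for Ins2, and 3.6% against 3.5% for Ins1. The log2 fold change was −0.56 ± 0.36 (SE) for Ins2 and −0.65 ± 0.34 (SE) for Ins1, and neither passed edgeR's quasi-likelihood test (adjusted p = 0.295 and 0.213). With each library left out, Ins2 ranged from −0.85 to −0.39 and Ins1 from −0.85 to −0.48, and neither passed. For the sum of both genes, the fold change was 0.666, with a 95% interval from 0.371 to 1.20 (adjusted p = 0.293, edgeR). In whole-islet RNA, fewer β cells and less insulin transcript in each β cell cannot be told apart. By staining of pancreas sections, the paper reports no change in the ratio of β to α cells in β-tetO-NICD mice on Dox. The controls of that count lacked Cre, unlike the sequenced controls. By lineage tracing with EGFP, the paper found no evidence of β cells turning into α cells. Cell numbers of the sequenced islets are not given in the sources used here.

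Iapp, the amyloid polypeptide that β cells release with insulin, followed the insulin genes. It was at 12947, 15843, 17582 and 11207 CPM in controls and at 7389, 8941, 7276 and 14637 CPM in the β-tetO-NICD group. As with Ins2, library 5 lay among the controls and the other 3 below all of them. Its log2 fold change was −0.59 ± 0.31 (SE), with edgeR's adjusted p at 0.206. Per insulin count, Iapp was at 0.0909 ± 0.0115 (SD, n = 4) in controls and 0.0935 ± 0.0166 (SD, n = 4) in the β-tetO-NICD group, a log2 difference of 0.03 ± 0.15 (SE) by counts of each library. The ratio of Ins1 to Ins2 was 0.389 ± 0.0511 (SD, n = 4) and 0.371 ± 0.0396 (SD, n = 4). Exact permutation tests (two-sided) gave p = 0.886 for the first ratio and 0.629 for the second. For both ratios the group means lay closer together than the SD of either group.

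The calls of the β cell hormones depended on how the length trend was handled. With an offset that removes each library's trend with transcript length, the log2 fold change was −1.13 for Ins1, −1.10 for Ins2 and −1.11 for Iapp, and all 3 passed edgeR's test (adjusted p = 0.0147, 0.0195 and 0.0097). In that fit 10.5% of all genes were called and 5.18% fell. With the trend as a covariate the values were −1.21, −1.05 and −0.93, and none passed (adjusted p = 0.125, 0.271 and 0.206, edgeR). Over the fits other than those leaving out a library, the highest adjusted p was 0.650 for Ins1, 0.773 for Ins2 and 0.602 for Iapp. Among the libraries with a positive trend, 3 controls against β-tetO-NICD library 1, Ins2 was at −1.23. Among those with a negative trend, control 3 against 3 β-tetO-NICD libraries, it was at −0.51.

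**Figure D2:**
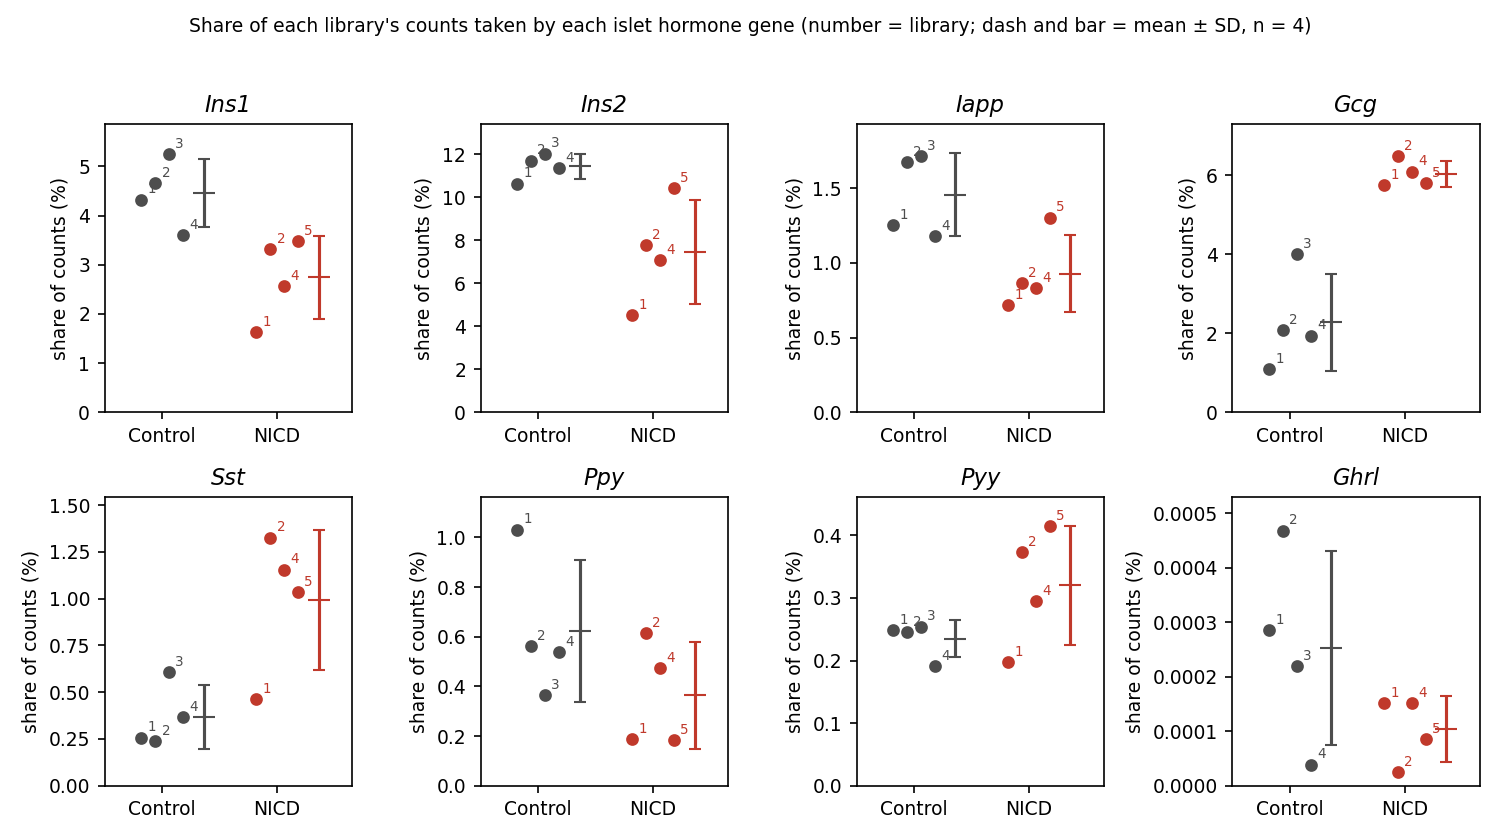
The vertical axis of each panel is the share (%) of a library's total counts, with 1 point per library, its number beside it, and the mean ± SD (n = 4) to the right. Ins1, Ins2 and Iapp sit lower on average in NICD (β-tetO-NICD) libraries, Gcg does not overlap between the groups (1.09% to 4.0% against 5.75% to 6.48%), and Ppy overlaps, as does Ghrl through control 4 alone.

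Glucagon RNA was higher in every β-tetO-NICD library than in any control. Gcg, whose product also gives rise to GLP-1, was at 11317, 19707, 41122 and 18467 CPM in controls and at 59319, 67055, 53398 and 65243 CPM in the β-tetO-NICD group. Control 3 was the highest of the controls, and the β-tetO-NICD libraries were close together. The fold change was 2.70, with a 95% interval from 1.44 to 5.08 (log2 fold change 1.44 ± 0.41, SE). Gcg missed the threshold of edgeR's test by a small margin (adjusted p = 0.0622, unadjusted p = 0.00568). Gcg was the only hormone gene whose groups did not overlap in CPM, a property shared by 16.1% of all genes tested, 8.22% with the higher values in β-tetO-NICD libraries.

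Sst, the δ cell hormone that inhibits both insulin and glucagon release, differed by nearly the same factor. It was at 2654, 2269, 6227 and 3485 CPM in controls and at 4756, 13725, 10125 and 11603 CPM in the β-tetO-NICD group. Library 1 lay below control 3, and the other 3 β-tetO-NICD libraries lay above every control. The fold change was 2.75, with a 95% interval from 1.45 to 5.21 (log2 fold change 1.46 ± 0.41, SE), and edgeR's adjusted p was 0.0619.

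None of the 8 hormone genes passed an adjusted p of 0.05 in edgeR's test, whereas 6.76% of all genes tested did. At an unadjusted p under 0.05, 2 of the 8 were called, Gcg and Sst, against 31.6% of all genes tested. The calls of this pair turned on single libraries and on the test. Without control 3, Gcg was at 1.89 (adjusted p = 0.0214) and Sst at 1.84 (adjusted p = 0.036) on the log2 scale by edgeR. Without β-tetO-NICD library 1, they were at 1.44 (adjusted p = 0.0338) and 1.68 (adjusted p = 0.011), and both passed in either case. Of all genes, 5.58% were called without control 3 and 32.6% without β-tetO-NICD library 1, where the unadjusted p of Gcg was 0.00902, above that with all 8 libraries. DESeq2 called both and no other hormone gene (adjusted p = 0.000591 for Gcg and 0.00233 for Sst), limma-voom called Gcg alone (adjusted p = 0.0394), and with an acinar marker score as a covariate in edgeR both passed (adjusted p = 0.0472 and 0.0382). Of all genes, DESeq2 called 18.2%, limma-voom 7.18% and the fit with the acinar covariate 6.52%. With the length offset, Gcg was at 1.06 and Sst at 0.93, and neither passed (adjusted p = 0.0729 and 0.0813, edgeR). With the length trend as a covariate, Gcg was at 1.14 (adjusted p = 0.195) and Sst at 0.62 (adjusted p = 0.286, edgeR), the lowest value of Sst under any alternative. Among the 5 libraries without Eif2s3y they were at 1.20 and 1.11 (adjusted p = 0.559 and 0.528, edgeR). The highest adjusted p of any such fit was 0.713 for Gcg and 0.528 for Sst, in fits of 4 and 5 libraries. Within the libraries of positive length trend Gcg was at 1.85 and Sst at 0.77, and within those of negative trend at 0.59 and 0.93.

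**Figure D3:**
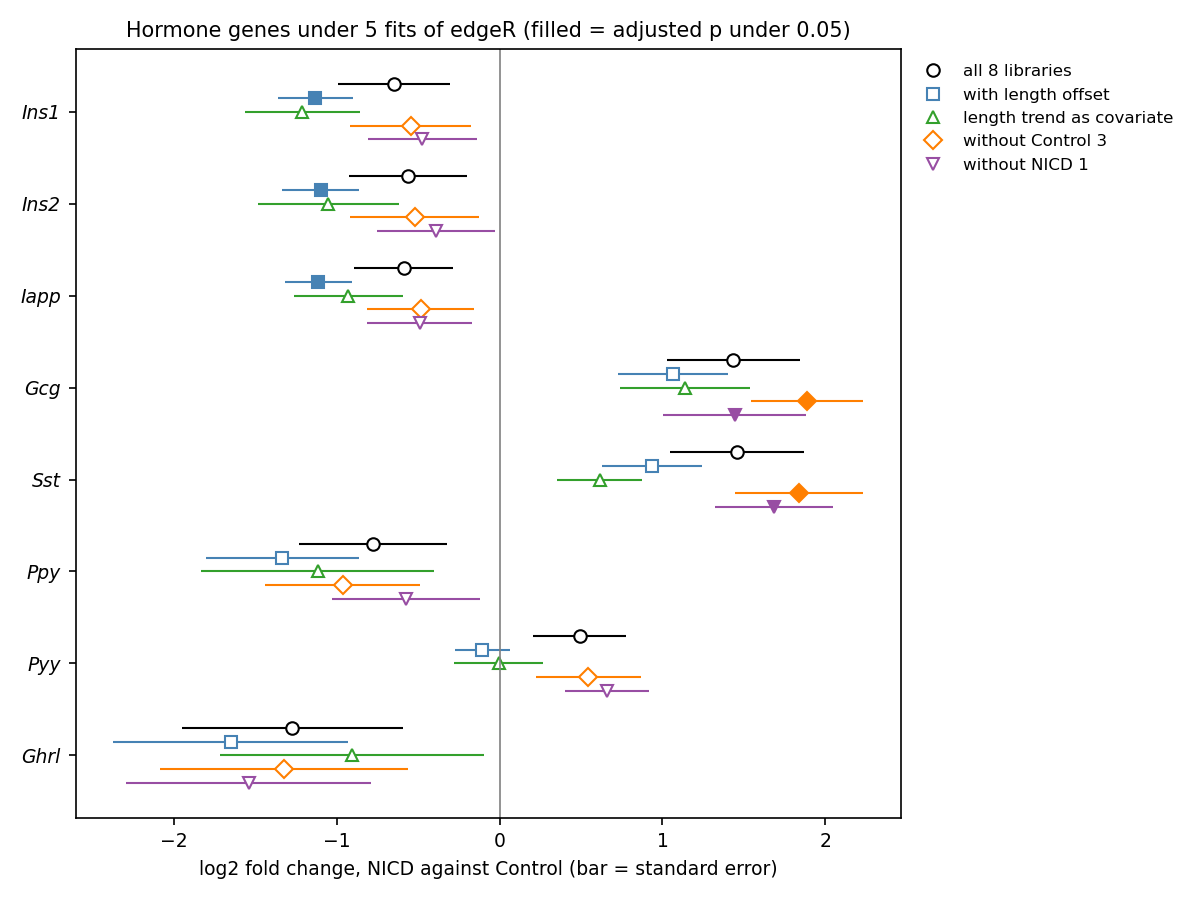
Points give the log2 fold change of NICD (β-tetO-NICD) against control libraries, with bars for the standard error, under 5 fits of edgeR marked by shape and colour. Filled points passed an adjusted p of 0.05: the β cell hormones only with the length offset, and Gcg and Sst only without control 3 or without NICD library 1.

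Pancreatic polypeptide and its relatives gave no common direction. Ppy, the hormone of PP cells, was at 10678, 5318, 3740 and 5099 CPM in controls and at 1929, 6348, 4147 and 2050 CPM in the β-tetO-NICD group. Control 1 stood above the rest, and the groups overlapped. Its log2 fold change was −0.78 ± 0.46 (SE), with edgeR's adjusted p at 0.254. It was −0.37 without control 1, −1.20 without β-tetO-NICD library 2 and −1.34 with the length offset. Among the libraries of positive and negative length trend it was −1.86 and 0.17. Pyy, the gene of peptide YY, which several islet cell types express, was at 2576, 2330, 2611 and 1819 CPM in controls and at 2037, 3866, 2582 and 4655 CPM in the β-tetO-NICD group. These values overlapped, with a log2 fold change of 0.49 ± 0.29 (SE) and edgeR's adjusted p at 0.248. With 1 library left out, it ranged from 0.27 (without β-tetO-NICD library 5) to 0.66 (without β-tetO-NICD library 1). The log2 fold change of Pyy was −0.11 with the length offset. It was −0.13 among libraries of positive length trend and 0.51 among those of negative trend. The cause of these changes in direction was not tested.

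Ghrl, the hormone of ε cells, was near the limit of measurement. It had 64, 105, 57 and 9 counts in controls and 33, 6, 40 and 19 counts in the β-tetO-NICD group, and the groups overlapped. In CPM the log2 fold change was −1.27 ± 0.68 (SE), and edgeR's adjusted p was 0.217. The Wilson 95% interval of control 4, the lowest control, ran from 2.02e-05% to 7.31e-05% of its counts. For the other 7 hormone genes every library's interval lay within 0.977% of the share itself, so counting error was small beside the differences between mice, and intervals cover counting error only.

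Ratios within a library do not depend on its normalization, and 10 ratios were compared with a two-sided exact permutation test, whose 70 arrangements of the libraries cannot give a p below 0.0286. Glucagon per insulin count was 0.0731, 0.127, 0.232 and 0.130 in controls and 0.934, 0.585, 0.631 and 0.417 in the β-tetO-NICD group. In β-tetO-NICD library 1, glucagon and insulin counts were thus nearly equal, and no β-tetO-NICD library came down to control 3. The geometric mean of the ratio was 4.76-fold higher (log2 difference 2.25 ± 0.42, SE, higher in 4 of 4 libraries). Somatostatin per insulin count was 0.0171, 0.0146, 0.0351 and 0.0245 in controls and 0.0749, 0.120, 0.120 and 0.0742 in the β-tetO-NICD group. It was 4.38-fold higher (log2 difference 2.13 ± 0.34, SE), and the ranges were again separate.

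The ratio of Pyy to insulin varied least within groups among the 3 ratios whose ranges were separate. It was 0.0166, 0.0150, 0.0147 and 0.0128 in controls and 0.0321, 0.0337, 0.0305 and 0.0298 in the β-tetO-NICD group. All 4 β-tetO-NICD libraries held about 2.14-fold more Pyy per insulin count (log2 difference 1.10 ± 0.09, SE), although Pyy alone overlapped. The value was 1.12 among libraries of positive length trend, 1.09 among those of negative trend, 1.02 with the length offset and between 1.03 and 1.15 with any 1 library left out. For each of these 3 ratios the exact permutation p was 0.0286, the smallest this design allows, and 0.0952 after Benjamini-Hochberg adjustment over the 10 ratios, so none passed after adjustment. Glucagon per insulin was at 3.13 and 1.21 on the log2 scale within the libraries of positive and negative length trend, and somatostatin per insulin at 2.03 and 1.54. Each of these subsets has 1 library in an arm, and as the ranges were separate over all 8 libraries their direction was fixed, so that only the sizes are described. As the denominator is common to these ratios, they are not independent of each other.

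**Figure D4:**
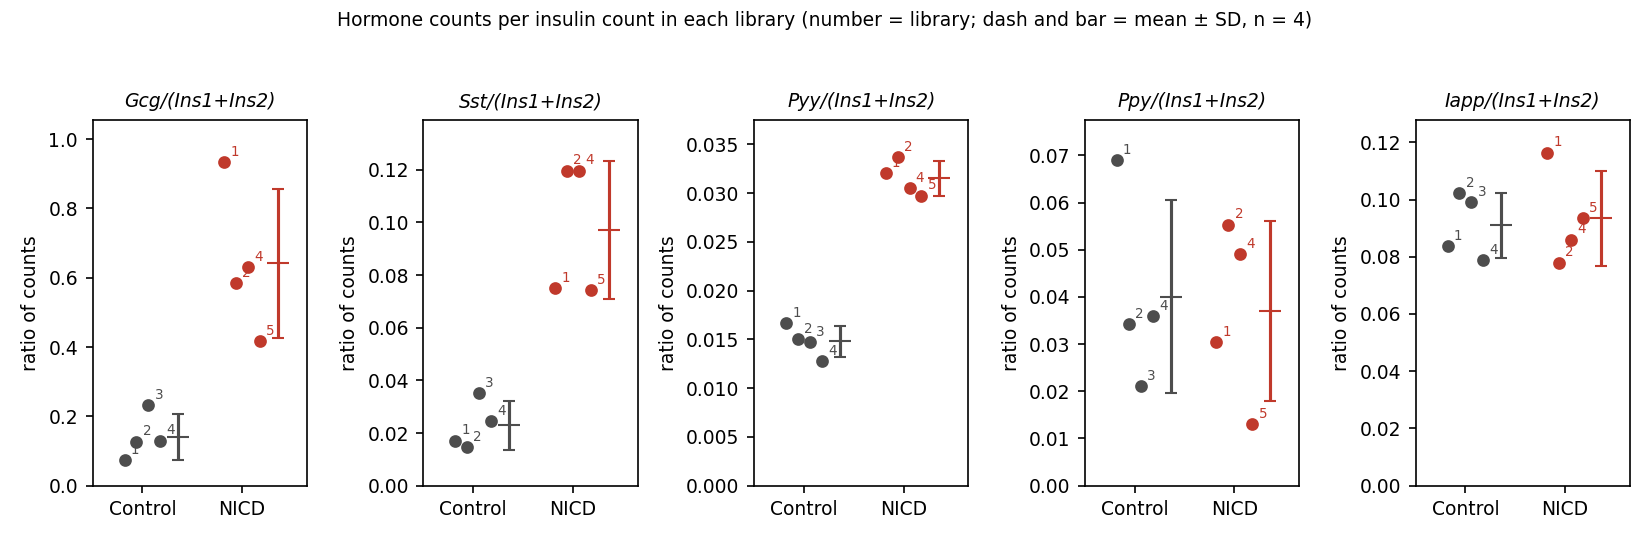
The vertical axis of each panel is the count of 1 hormone gene divided by the summed counts of Ins1 and Ins2, with 1 point per library, its number beside it, and the mean ± SD (n = 4) to the right. The groups are separate for Gcg, Sst and Pyy, with Pyy between 0.0128 and 0.0166 in controls and between 0.0298 and 0.0337 in NICD (β-tetO-NICD) libraries, and overlap for Ppy and Iapp.

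The other ratios overlapped between the groups. Sst per Gcg count was 0.172 ± 0.0511 (SD, n = 4) in controls and 0.163 ± 0.0563 (SD, n = 4) in the β-tetO-NICD group (log2 difference −0.12 ± 0.38, SE, exact permutation p = 0.771). Ppy per insulin count was 0.0401 ± 0.0204 and 0.0370 ± 0.0191 (SD, n = 4 each, exact permutation p = 0.771). Ppy per Gcg count was 0.944, 0.270, 0.0909 and 0.276 in controls and 0.0325, 0.0947, 0.0777 and 0.0314 in the β-tetO-NICD group. The log2 difference was −2.43 ± 0.80 (SE), with control 3 inside the β-tetO-NICD range (exact permutation p = 0.0571, adjusted p = 0.143). It was −1.85 without control 1, −3.67 among libraries of positive length trend and −0.57 among those of negative trend. Pyy per Ppy count differed by 1.28 ± 0.55 (SE) and Ghrl per Gcg count by −2.68 ± 1.09 (SE) on the same scale, each with an exact permutation p of 0.0857. The first was 0.87 without β-tetO-NICD library 5 and 0.45 among libraries of negative length trend. The second was −3.41 without control 4 (exact permutation p = 0.0286, adjusted p = 0.0714) and −2.07 without β-tetO-NICD library 2 (exact permutation p = 0.171).

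The order of the hormones was compared per kilobase of coding sequence, which runs from 279 bases in Iapp to 540 bases in Gcg, since annotated transcript ends differ between sources. In controls the mean CPM per kilobase fell from Ins2 through Ins1, Iapp, Gcg, Ppy, Sst and Pyy to Ghrl. In β-tetO-NICD islets the order was Ins2, Gcg, Ins1, Iapp, Sst, Ppy, Pyy and Ghrl. By this length Gcg moved up by 2 places and Sst by 1. In controls, the ranges of neighbours overlapped from Iapp down to Pyy. In β-tetO-NICD islets only Ins2 and Gcg at the top, and Pyy and Ghrl at the bottom, were neighbours with separate ranges. Per kilobase of annotated transcript instead, Gcg also stood above Iapp in controls, with overlapping ranges, and again stood second in β-tetO-NICD islets, a move of 1 place, and Sst moved up by 2 places, past Ppy and Iapp.

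The hormones were set beside other marker genes of the cell types that make them. Of 15 β cell markers tested, 6 fell, against 2.57% of all genes, and none rose, with a median log2 fold change of −0.86 against 0.00 over all genes. The member with the highest mean over all 8 libraries, G6pc2, which encodes the islet glucose-6-phosphatase, fell by 2.41 on the log2 scale (adjusted p = 0.000138, edgeR), and Trpm5, a cation channel, fell by 2.10. Papss2, which makes the sulfate donor, fell by 1.17 and Ucn3, a peptide hormone of mature β cells, fell by 1.11. The transcription factors on this list are named here after their values were seen. Pdx1 and Nkx6-1 were at 0.04 each and Mafa at −0.86, and none passed (adjusted p = 0.901, 0.912 and 0.207, edgeR). With the length trend as a covariate 4 of the 15 fell, against 0.942% of all genes.

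Of 21 α cell markers tested, 6 rose, against 4.19% of all genes, none fell, and 18 had a log2 fold change above 0 (median 0.54). Gc, the vitamin D binding protein, rose by 2.62 and Higd1a, a mitochondrial protein, by 1.81. Slc38a5, an amino acid transporter of α cells, rose by 1.10 (adjusted p = 0.023, edgeR). Ttr, the most abundant of the list, was at 1155 ± 573 CPM in controls and 2919 ± 840 CPM in the β-tetO-NICD group (SD, n = 4, adjusted p = 0.0553, edgeR). The summed level of the list was 2014 to 3481 CPM in controls and 4002 to 6152 CPM in the β-tetO-NICD group, with separate ranges. The count that rose was 2 with the length trend as a covariate, against 1.91% of all genes, and 8 with the length offset, against 5.36%. It was 9 without control 3, against 3.46%, and also 9 without β-tetO-NICD library 1, against 16.0%, where 1 gene fell.

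Of 13 δ cell markers, 2 rose and 1 fell, against 4.19% and 2.57% of all genes. Hhex, the transcription factor of δ cells, and Ffar4, a fatty acid receptor, rose by 1.0 and 1.04 (adjusted p = 0.0436 and 0.0463, edgeR). Sstr3, a somatostatin receptor, fell by 0.74 (adjusted p = 0.0456, edgeR), and Rbp4, which had the highest mean over all 8 libraries but lay below Sstr3 in controls, was at 0.86 (adjusted p = 0.082, edgeR). The summed levels of the list overlapped, from 701 to 1070 CPM in controls and from 832 to 1069 CPM in the β-tetO-NICD group, as did the levels of Sst itself. None of 8 PP cell markers and none of 5 ε cell markers passed edgeR's test in either direction, with medians of 0.32 and 0.21, and 1 and 2 of them had an unadjusted p under 0.05, against 31.6% of all genes. The members with the highest mean over all 8 libraries, Meis2 and Nkx2-2, both transcription factors, were at −0.06 and 0.34 on the log2 scale. Nkx2-2, at 94.7 CPM in controls where Ghrl was at 2.50 CPM, is also on the list of transcription factors of hormone genes, as is Rfx6. The ε list is thus not specific to ε cells, and its values need not describe them. No δ cell marker passed with the length trend as a covariate, when 2.85% of all genes did, and Sstr3 did not pass with the length offset or without control 3 either. Without β-tetO-NICD library 1, when 16.0% of all genes rose and 16.6% fell, 4 δ cell markers rose and 2 fell, 1 PP cell marker rose and 1 fell, and 2 ε cell markers fell. In the same fit 4 transcription factors of the hormone genes rose and 5 fell, and 3 hormone receptors rose and 4 fell, which is read against those shares.

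**Figure D5:**
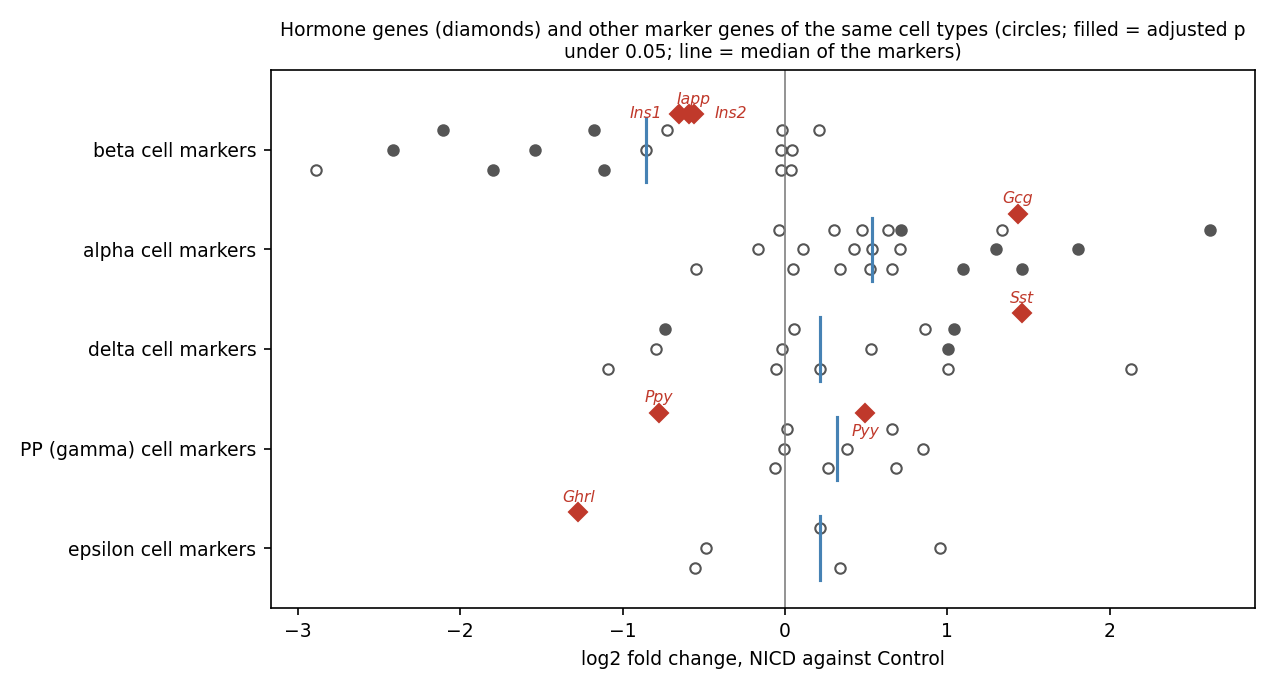
The horizontal axis is the log2 fold change of NICD (β-tetO-NICD) against control libraries, red diamonds are hormone genes, circles the other markers of the same cell type (filled where the adjusted p was under 0.05 in edgeR), and blue lines the median of the circles. Filled circles lie left of 0 for β cells and right of 0 for α cells, 6 in each, while Ppy and Ghrl lie left of the medians of their lists.

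Genes that make, sort or sense these hormones were described in the same way. Of 16 genes of prohormone processing and granins, 1 passed, a share near the 6.76% of all genes. Pcsk1, the convertase that cleaves proinsulin, fell from 547 ± 168 to 261 ± 64.9 CPM (SD, n = 4, adjusted p = 0.0446, edgeR). Chga, chromogranin A, the most abundant, was at 0.33 on the log2 scale (adjusted p = 0.401, edgeR). Of 22 transcription factors of islet hormone genes, 4 rose, among them Hhex (1.0), Irx1 (1.46) and Irx2 (1.30), and none fell, against 4.19% and 2.57% of all genes. With the length offset 4 rose and 2 fell, against 5.36% and 5.18%. Pax6, which had the highest mean over all 8 libraries of them and activates Ins1, Gcg and Sst, was at −0.61 (adjusted p = 0.0598, edgeR). With the length trend as a covariate none of these 22 factors passed, nor any of the processing genes and granins, the receptors or the other peptide hormone genes of this paragraph, against 2.85% of all genes. With the length offset 2 processing genes or granins rose and 1 fell. Of 13 hormone receptors, Sstr3 alone passed, a share near the 6.76% of all genes. Of 11 other peptide hormone genes, Calca, the calcitonin gene, had 9 to 29 counts in controls and 29 to 103 counts in β-tetO-NICD libraries and rose by 2.18 on the log2 scale, and Ucn3 fell, 1 gene each way against 4.19% and 2.57% of all genes.

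Markers of other cells in the preparation were measured beside these groups. The 20 acinar markers summed to 53770 to 107299 CPM in controls and 45287 to 162898 CPM in the β-tetO-NICD group, with none passing edgeR's test (0 also at an unadjusted p under 0.05), 19 above 0 and Ctrb1, a chymotrypsinogen, the most abundant (0.58, adjusted p = 0.331). Library 1 of the β-tetO-NICD group, the lowest in both insulin genes, had the highest acinar sum. Its insulin took 6.16% of all counts and 7.31% of the counts outside the acinar list, the lowest share by either measure. Lists with called genes are read against the 4.19% of all genes that rose and the 2.57% that fell. Of 12 duct markers Ambp alone rose by 1.14, and Krt18 (0.46) had the highest mean over all 8 libraries, below Krt7 in controls. Of 11 macrophage and leukocyte markers C1qa and H2-Aa rose by 0.95 and 1.11, with summed levels of 242 to 300.3 CPM in controls and 350.1 to 494 CPM in the β-tetO-NICD group. With the length trend as a covariate no duct and no macrophage or leukocyte marker passed, against 2.85% of all genes. Of the duct markers 3 rose without β-tetO-NICD library 1, and of the macrophage and leukocyte markers 4 rose and 2 fell. In that fit 16.0% of all genes rose and 16.6% fell. None of 10 endothelial or 11 mesenchymal markers passed edgeR's test (4 and 1 at an unadjusted p under 0.05, against 31.6% of all genes), although 4 endothelial markers rose without β-tetO-NICD library 1, when 16.0% of all genes did. Plvap (0.51) and Rgs5 (0.02) were the most abundant of these lists. Of 9 nerve markers Th alone, tyrosine hydroxylase, fell, by 1.48, and Tubb3, with the highest mean over all 8 libraries but below Th in controls, was at −0.36. Of all genes on these lists, Nmu alone, a peptide gene, had 0 counts in every library. The part of these cells in the hormone differences was not tested apart from the acinar covariate.

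Genes were ranked by how closely their log2 CPM followed 4 of the hormones over the 8 libraries, among 12756 genes. The closest to Gcg were Slc38a5 (Pearson's r = 0.98), Sgce (0.98) and Mlkl (0.97). For Sst they were Prr15, Scrn2 and Etfa (0.98 each), for Ins2 Dimt1 and Prr15l (0.97 each) and Gm13722 (0.96), and for Ppy Vac14 (0.95), Pi4k2a (0.92) and Agfg2 (0.91). Among the hormones, r was 0.95 between Ins1 and Ins2 and 0.87 between Gcg and Sst. With the group means removed, these were 0.92 and 0.61. Between Gcg and Ins1 it was −0.45 over all 8 libraries and 0.34 with the group means removed, and between Pyy and Ins1 it was 0.27 and 0.98. All these points share libraries, length trends and the group difference, and the values are descriptions.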

How the data were processed

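The authors prepared stranded poly(A) libraries from islet RNA and used Kallisto for pseudoalignment to GRCm38 transcripts (the version is not given in the sources used here). They deposited raw counts per gene symbol, in whole numbers and without normalization. A deposited table of the authors' own comparison by limma was not used. Rows of the 8 genes were found by symbol, and columns were assigned by name. The hormone genes, marker lists and tests were chosen with earlier results of these data known. Per the methods, each group held the islets of 4 animals, and libraries of the same group always differed by more than counting noise (chi-square of at least 31.5 per gene).

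Genes reaching 10 counts in 4 or more of the 8 libraries were tested with edgeR 4.0.16 (R 4.3.3, TMM, quasi-likelihood test, no covariate), with Benjamini-Hochberg adjustment over all 15082 genes and a threshold of 0.05. CPM are counts scaled to a common library total after TMM. Ratios were taken from counts and tested by exact permutation in Python 3.11.15. Length offsets used a loess fit (span 0.5) of each library's deviation on the log length of the longest GENCODE M21 transcript, known for 97.2% of tested genes. The fits were first tested on simulated data. Alternatives were DESeq2 1.42.0, limma-voom (limma 3.58.1), other normalizations and filters, covariates for acinar score, length trend and Eif2s3y, subsets by length trend or Eif2s3y, a replicate block and leaving out each library. Named genes were the 8 hormones, the members of each marker list that passed (of more than 4, the 2 highest and 2 lowest log2 fold changes) with the member of highest mean CPM over all 8 libraries, and the 3 genes most correlated with each of Ins2, Gcg, Sst and Ppy among genes whose mean was 50 or more normalized counts. A gene that this rule names is not reported here. List counts without control 3, without β-tetO-NICD library 1 and with the length trend handled were added after seeing the data.

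Totals of 21701223 to 26413146 counts per library put 3 counts at no more than 0.138 CPM before TMM scaling. Motifs were searched in RefSeq promoter windows of 250 bases.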

Additional observations from a re-analysis of the deposited data

Results flagged for a closer look

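A library far from the other 3 of its group was looked for in 40 sets of 4 values, by the gap to the nearest library divided by the group's range, where chance alone passes about 1 in 20. The gap passed Dixon's 95% critical value in 2 sets, as many as chance gives. The share of counts of Pyy was lowest in control 4 (gap 0.868), at 0.192% against 0.246% to 0.254% in the other controls. The log2 ratio of Sst to Gcg was lowest in β-tetO-NICD library 1 (gap 0.850), at −3.64 against −2.49 to −2.29 in the other β-tetO-NICD libraries.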

How the results depend on the processing

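Apart from left-out libraries, 125 log2 fold changes of the hormones under alternatives kept their direction and side of the threshold, 13 came to pass it and 4 changed direction. Gcg passed with DESeq2 (1.44), limma-voom (1.60) and the acinar covariate (1.56), and Sst with DESeq2 (1.47) and the acinar covariate (1.62). With the length offset, Ins1 (−1.13), Ins2 (−1.10), Iapp (−1.11) and their insulin sum (−1.11) passed. Pyy turned to −0.0070 with the length covariate, −0.11 with the offset and −0.13 in libraries of positive trend, and Ppy to 0.17 in those of negative trend. The cause was not tested. With each library left out, Gcg ranged from 1.22 to 1.89 and Sst from 1.27 to 1.84. Of the ratios, Ppy per insulin turned to 0.19 without libraries holding Eif2s3y, 0.64 in negative-trend libraries and 0.14 by medians, Iapp per insulin to −0.21 and −0.022 in the last 2, and Sst per Gcg to 0.33 and 0.12. Left-out libraries gave −0.45 to 0.25, −0.079 to 0.11 and −0.30 to 0.19 for these 3 ratios. Shares kept their direction under every denominator. Ghrl was not tested in the subsets by length trend.

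The replicate block used the numbers 1 and 2, the only ones settled in both groups. Deviations of same-numbered libraries correlated at 0.06, a value that rests on these 2 pairs alone. Among them only β-tetO-NICD library 2 had a negative length trend, so the value cannot show whether same-numbered libraries are paired. With the block, log2 fold changes were 2.08 for Gcg, 1.72 for Sst, −2.28 for Ghrl and −0.86 for insulin, all with an adjusted p under 0.05 in edgeR, and the log2 ratios were 2.94 for Gcg per insulin and −4.58 for Ghrl per Gcg. Without the block the same 4 libraries, a fit chosen after seeing the data, gave 2.03, 1.91, −2.02 and −0.79, none with an adjusted p under 0.05 (0.384, 0.384, 0.482 and 0.689, edgeR). The block called 610 genes, and the fit without it 51.

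Against 1020 genes called, DESeq2 called 2739, the length offset 1591 (809 higher and 782 lower, against 632 and 388), the length covariate 430, libraries without Eif2s3y 104, those of positive trend 85 and of negative trend 77. Leaving out 1 library gave 382 (without β-tetO-NICD library 2) to 5113 (without β-tetO-NICD library 1). With 4 libraries a group, the exact test of a ratio cannot pass after adjustment unless several ratios reach its smallest p. Among the hormones, depth limits Ghrl.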
